A study of Drosophila melanogaster with 18 samples.

Results

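Repression by tethered HP1a was measured as the expression of reporters with GAL4-HP1 against the same reporters with the GAL4 DNA-binding domain alone. The reporters lay at 749 integration sites, all of them from 1 pool of Drosophila Kc167 cells, an embryonic cell line. The comparison used 8 of the 18 samples of the series, and 642 of the 749 reporters entered it. Each reporter carried a GFP gene under a copper-inducible metallothionein promoter, 5 binding sites for GAL4 and a barcode of 21 nt by which it was counted. In the GAL4-HP1 group a plasmid with a constitutive actin promoter, transfected transiently, encoded HP1a joined to the DNA-binding domain of yeast GAL4, and in the GAL4 group it encoded only that domain. Both groups received 0.5 mM copper sulfate to induce the promoter, and cells with the mCherry marker of the plasmid were sorted 2 days after transfection. Each group had 2 replicates, each with a cDNA library for reporter mRNA and a gDNA library for reporter DNA. These replicates are technical by the series text but biological by the study, so the spread between them may not include that of separate pools. The libraries count reporter barcodes only, and the amount of the transfected proteins was not measured in them.

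HP1a is a protein of heterochromatin, the compact and mostly silent chromatin around centromeres. Its chromodomain binds methylated histone tails, and its chromoshadow domain forms dimers and contacts other silencing proteins. In Drosophila it is abundant at pericentric regions, on most of chromosome 4 and at telomeres. Bringing it to a reporter through a DNA-binding domain is a common way to impose silencing at a chosen place, and here it served as the control for repression in a study of the remodeling factor ACF1.

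The barcodes that follow belong to the reporters on which the results turn, named by chromosome arm and a letter in the order of position. They are printed in lower case from 5′ to 3′, and no base in them is marked. Positions are those of the deposited table in build dm3, and no gene annotation of that build was used here. Distances run to the centromere-proximal end of the arm. For the following 4 reporters both GAL4-HP1 values were at or above both GAL4 values, at 4414745 (3L-b, plus), 13371977 (3L-c, plus), 15540697 (X-b, plus) and 16519469 (X-c, minus).
3L-b: ggacgttcagaagaatagcca
3L-c: ccattgagttgcgtgatcttt
X-b: cggaaatctgtctatactttg
X-c: cacgtatgctccattcaagtg
The most lowered reporters with enough reads were at 5819713 (2L-a, plus), 18931886 (2L-b, minus), 19480251 (2L-c, minus), 22732476 (2L-d, plus), 24071455 (3L-d, minus) and 2506694 of the heterochromatic scaffold 3RHet (3RHet-a, plus).
2L-a: ttatgtgtttttatttgagtg
2L-b: agtctagtctcttggaatgta
2L-c: accgtgtgccctatattacga
2L-d: aggcgttcgggatcggtgcgt
3L-d: cgcacattcagggcctagtag
3RHet-a: gccttatcctttacgcgagtc
Those nearest to the centromere on their arms were at 22921162 (2L-e, plus), 24250389 (3L-e, minus), 124940 (3R-a, plus) and 22303111 (X-d, minus).
2L-e: cggttgctaatcgtgctattc
3L-e: ctcggtctacgtcataacaga
3R-a: ggagctgatgtgagtactggg
X-d: ggaggactttaggttgaactt
The strongest in GAL4 were at 3430681 (3L-a, minus), 4644683 (3R-b, plus) and 3325631 (X-a, minus).
3L-a: gatacttagtagcttagcgcc
3R-b: tgggtaagggcaactgaactt
X-a: gggggggcacgtcaggaagtg

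Reporter expression was lower with tethered HP1a at most integration sites. Expression is the deposited ratio of cDNA to gDNA counts with a scaling factor per library. Its median over the 642 reporters was 36.5 and 33.0 in the GAL4 replicates and 16.2 and 9.74 in the GAL4-HP1 replicates, so both GAL4-HP1 libraries lay below both GAL4 libraries. In pooled cells, fewer cells that express a reporter and less RNA per cell cannot be told apart. The median log2 fold change was −1.47, a 2.77-fold lower level, with quartiles of −2.27 and −0.70. The replicates alone gave −1.19 and −1.86 (mean −1.52 ± 0.48 SD, n = 2). With 2 libraries against 2 the two-sided exact permutation p was 0.333, the smallest that this design allows. The size of the shift rested on the scaling between libraries. With column totals in place of the deposited scaling the median was −0.66, and with totals that leave out 3R-b, the reporter with the most reads, it was −0.41.

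The lowering was spread over the whole collection of reporters. The mean was lower with GAL4-HP1 for 581 reporters (90.5%), at least 2-fold lower for 421 (65.6%) and at least 4-fold lower for 210 (32.7%). Both GAL4-HP1 values lay below both GAL4 values for 419 reporters (65.3%). The reverse, with both GAL4-HP1 values at or above both GAL4 values, was seen for 6 reporters (0.935%), and for the remaining 217 (33.8%) the values of the groups overlapped. Under column totals the mean was lower for 72.0%, and the numbers without overlap were 266 and 37. Only 16 reporters were at least 2-fold higher by their means. In the plot of the levels the points therefore form 1 band parallel to the line of no change and below it.

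**Figure D1:**
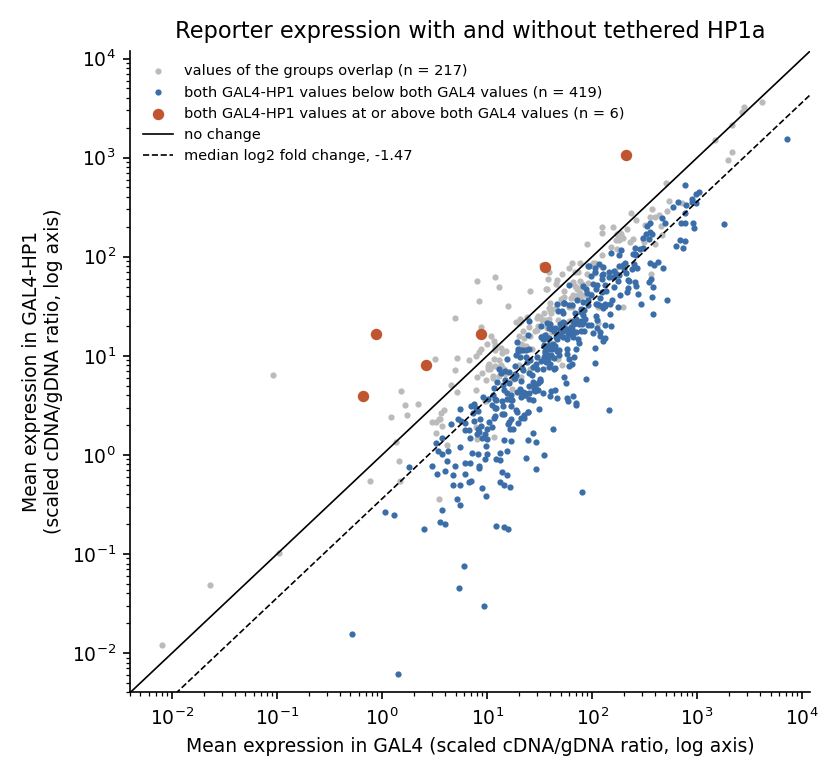
Mean expression of the 642 reporters in GAL4 (x axis) and GAL4-HP1 (y axis), as scaled cDNA/gDNA ratios on log axes. Blue points are the 419 reporters whose GAL4-HP1 values lay below both GAL4 values, orange points the 6 with the reverse, and grey points the 217 with overlap. The dashed line marks the median log2 fold change of −1.47.

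Reporters at 0 were kept in view, since a silenced reporter can leave no reads. Of the 107 reporters left out, 80 were left out only because their mean was 0 in GAL4-ACF1 or ACF1, the other conditions of the series. A further 19 were at 0 in both GAL4-HP1 libraries and above 0 in GAL4, whereas 4 were at 0 in both GAL4 libraries and above 0 in GAL4-HP1, and 4 were at 0 in both groups. The 19 had few reads in GAL4, with a median of 48 and a maximum of 252 cDNA counts in the better library. Reporters left out despite reads in GAL4 were weak, at a median of 3.92 with GAL4 alone, compared with 38.4 among those kept. Among the reporters kept, 34 in replicate 1 and 13 in replicate 2 had reads in GAL4 and none in GAL4-HP1. With these placed at the low end, the replicate medians were −1.30 and −1.90.

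Each reporter was also tested alone, by the quasi-likelihood test of edgeR on the barcode counts, so that each value is relative to its library total. Of 642 reporters 2 passed an adjusted p of 0.05 (0.312%), 1 lower (0.156%) and 1 higher (0.156%), and 61 had an unadjusted p under 0.05. Library totals remove any change that all reporters share. With library sizes from the deposited scaling, edgeR called 3 of the 642, with 3 lower and 0 higher, and 161 had an unadjusted p under 0.05. The lowered reporter in the fit to library totals was 2L-e, 0.090 Mb from the end of its arm. Its expression was 16.4 and 9.96 with GAL4 alone and 1.42 and 0.681 with GAL4-HP1, from 2755 and 2506 cDNA counts with GAL4 alone and 303 and 277 with GAL4-HP1. These counts were above the median reporter of each library with GAL4 alone (785 and 588) and below it with GAL4-HP1 (342 and 386). The groups did not overlap for 2L-e. In the fit its log2 value changed by −2.81 ± 0.48 (SE), with an edgeR adjusted p of 0.0324. With TMM factors for the library sizes it was −2.15 ± 0.47 (SE) and missed the threshold (edgeR adjusted p = 0.107). The raised reporter was 3R-b, which held 13.7% and 13.2% of the cDNA counts with GAL4 alone and 25.6% and 28.2% with GAL4-HP1. It rose by 1.04 ± 0.18 on the log2 scale (SE, edgeR adjusted p = 0.0324) relative to the library total. On the deposited scaling its expression was 2799 and 2785 with GAL4 alone and 3854 and 2680 with GAL4-HP1, so there the groups overlapped, and with library sizes from that scaling the fitted value was 0.23 ± 0.34 (SE, edgeR adjusted p = 0.663). With any 1 GAL4 or GAL4-HP1 replicate left out, edgeR called 0 reporters, with 38 to 72 at an unadjusted p under 0.05.

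How much a given site was lowered was hardly repeated between the replicates. Over the 589 reporters with reads in all 4 cDNA libraries, the log2 fold changes of replicate 1 and replicate 2 correlated with Pearson's r = 0.083 and Spearman's rho = 0.115 across reporters, which share the same libraries. The levels themselves were repeated, with r = 0.852 between the GAL4 replicates and 0.788 between the GAL4-HP1 replicates on the log2 scale. The SD over reporters of the fold change was 1.54 in replicate 1 and 1.58 in replicate 2, while that of their difference was 2.12. Deeper reporters repeated better. With 1000 or more cDNA reads in both GAL4 libraries r was 0.217 over 280 reporters, and with at least 5000 it was 0.313 over 104 reporters, where the SD of the difference was 0.981. The gDNA side of the ratio also varied. The log2 change of the gDNA share had an SD of 0.864 and 0.904 in the replicates and correlated with r = 0.0067 between them, and it was 4-fold or more for 21 and 28 reporters.

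**Figure D2:**
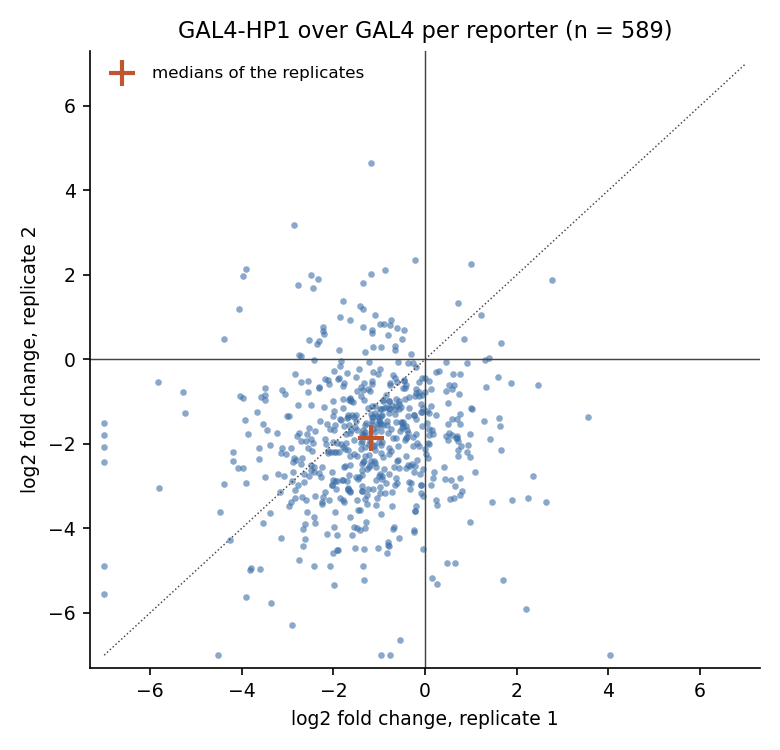
Log2 fold change of GAL4-HP1 over GAL4 for 589 reporters in replicate 1 (x axis) and replicate 2 (y axis). The orange cross marks the medians, the dotted line equal values, and 10 points beyond a log2 value of 7 are drawn at the edge. Most points lie below 0 on both axes, and the cloud follows the dotted line only weakly (r = 0.083).

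Reporters that seemed to resist HP1a in 1 replicate were mostly lowered in the other. In replicate 1, 96 of the 589 reporters were not lower with GAL4-HP1. In replicate 2, which had no part in choosing them, these had a median log2 fold change of −1.77, against −1.85 for all 589, and 7 of the 96 (7.29%) were again not lower, against 8.998% of all. Chosen in replicate 2, 53 reporters were not lower, and their median in replicate 1 was −1.19 against −1.18 for all. The same 7 (13.2%) were again not lower, against 16.3% of all. In both replicates 447 reporters (75.9%) were lower. The 10% of reporters most lowered in replicate 1 had a median of −2.11 in replicate 2, and the 10% least lowered had −1.78. Chosen in replicate 2, the medians in replicate 1 were −1.53 and −1.19.

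The 6 reporters with both GAL4-HP1 values at or above both GAL4 values were 0.935% of those compared, and 4 of them had enough reads to be described one by one. They were picked by their fold change, so their values are a description. The reporter 3L-b had an expression of 184 and 232.4 with GAL4 alone and 1260 and 851 with GAL4-HP1. Its cDNA counts were similar, at 3693 and 3851 with GAL4 alone and 4185 and 5865 with GAL4-HP1, while its gDNA counts were 1379 and 770 with GAL4 alone and 230 and 208 with GAL4-HP1. Most of the difference in the ratio was thus a difference in gDNA. The gDNA counts of this reporter were also low with ACF1, at 262 and 409, and its expression there was 1364 and 471, while with GAL4-ACF1 the counts were 2095 and 1140 and the expression was 130 and 179.

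The other resisting reporters had smaller changes or fewer reads. For 3L-c, expression was 33.8 and 38.1 with GAL4 alone and 78.5 and 78.9 with GAL4-HP1, a log2 fold change of 1.13, with 2.05 ± 0.80 in the fit to library totals (SE, edgeR adjusted p = 0.364). In GAL4-ACF1 it was 94.4 and 77.3 and in ACF1 50.3 and 30.6, conditions that are compared with the same GAL4 libraries. On the deposited scaling the GAL4 and GAL4-HP1 values of 3L-c did not overlap and were close within each group. The GAL4-HP1 values came from 931 and 2046 cDNA counts over 821 and 782 gDNA counts. Their closeness thus rested on the scaling factors of 69.3 and 30.2. For X-c, expression was 12.3 and 5.03 with GAL4 alone and 20.4 and 12.6 with GAL4-HP1, so the lower GAL4-HP1 value only just passed the higher GAL4 value. X-b had 13 and 0 cDNA counts with GAL4 alone and 303 and 59 with GAL4-HP1, so its level in the control rests on 1 library of few reads. The remaining 2 of the 6 were not named for their low counts or their arm.

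The strongest reporters differed in their fold changes, and so did the replicates of single reporters. The strongest, 3L-a, had an expression of 7300 and 7118 with GAL4 alone and 2264 and 834 with GAL4-HP1. It was lower in both replicates by more than the spread of either group, with a log2 fold change of −2.22. For X-a, expression was 2532 and 2780 with GAL4 alone and 4219 and 1572 with GAL4-HP1, higher in replicate 1 and lower in replicate 2. Of the 10 strongest reporters 7 had a lower mean and 3 were lower without overlap, with a median of −0.55 (−0.25 and −0.89 in the replicates). Of the 20 strongest, 17 had a lower mean and 13 were lower without overlap, with a median of −1.20. Of the 50 strongest, 46 had a lower mean and 31 were lower without overlap. Over all reporters, 90.5% had a lower mean and 65.3% were lower without overlap. The strongest were ranked by their GAL4 mean, which also enters the fold change.

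The most lowered reporters with 50 or more cDNA reads in both GAL4 libraries were mostly weak ones. Reporter 3RHet-a had an expression of 149 and 9.61 with GAL4 alone and 0.512 and 0.326 with GAL4-HP1. The first GAL4 value came from 354 gDNA counts, whereas the other 3 libraries held 1910, 3110 and 1758. The other 5 had no cDNA read in replicate 1 of GAL4-HP1 and between 1 and 26 reads in replicate 2. For 2L-d, expression was 5.23 and 6.78 with GAL4 alone and 0 and 0.152 with GAL4-HP1, and for 3L-d it was 5.03 and 19.4 with GAL4 alone and 0 and 0.387 with GAL4-HP1. These reporters lay 0.279 and 0.472 Mb from the ends of their arms, while 2L-b, 2L-c and 2L-a lay at 4.08, 3.53 and 17.2 Mb.

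**Figure D3:**
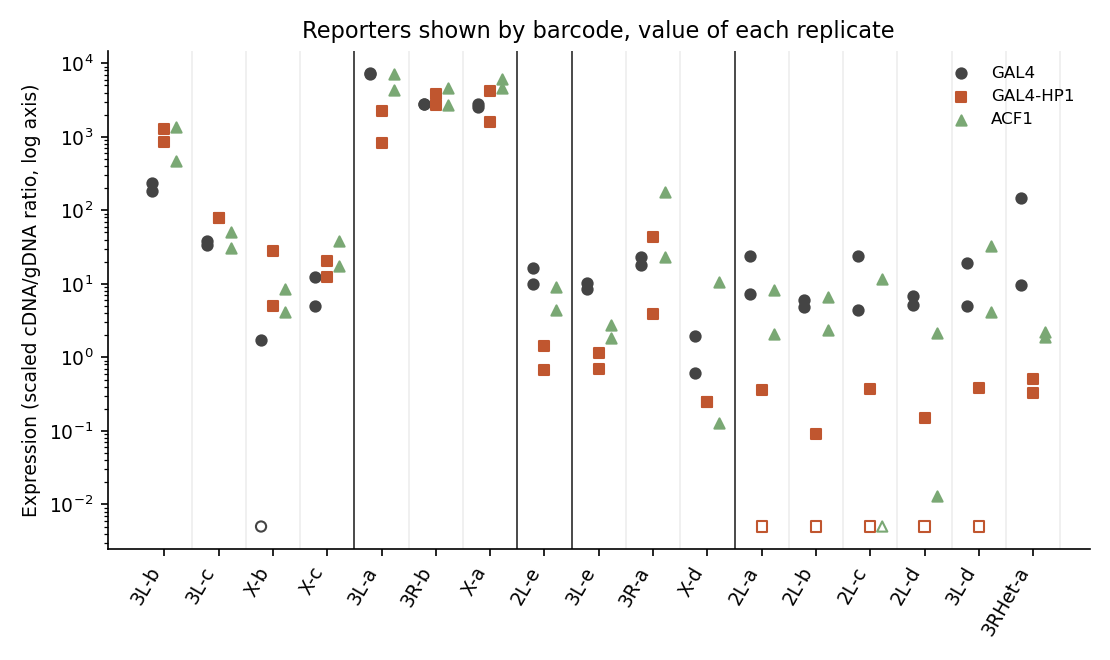
Expression of the 17 reporters printed by barcode in each replicate of GAL4, GAL4-HP1 and ACF1, as scaled cDNA/gDNA ratios on a log axis. Open symbols at the bottom are values of 0, and dark vertical lines separate, from left to right, the resisting, the strongest, the lowered reporter past the edgeR threshold, the other most centromere-proximal and the most lowered reporters. 3L-b and 3L-c lie above GAL4 in both GAL4-HP1 replicates, whereas for 2L-e both lie below.

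Integration sites were then compared by chromosome. The median log2 fold change was −1.45 on X (131 reporters), −1.77 on 2L (108), −1.37 on 2R (101), −1.44 on 3L (129) and −1.40 on 3R (155). In replicate 1 the arms lay between −1.34 and −1.09 and in replicate 2 between −2.05 and −1.67, so the arms were closer to each other than the replicates were. The X and the autosomal arms differed by −0.0060 (−0.13 and −0.045 in the replicates), a value that took either sign over the 13 alternatives, from −0.15 to 0.20. The arm 2L was lower than all reporters by 0.15 in replicate 1 and 0.11 in replicate 2. The share lower without overlap ran from 60.4% on 2R to 66.5% on 3R, around the 65.3% of all reporters.

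Chromosome 4, which is rich in HP1a, held 5 reporters, of which 4 were compared. The reporter at 547814 had an expression of 557 and 431 with GAL4 alone and 288 and 148 with GAL4-HP1, and that at 1252113 had 40.0 and 38.2 with GAL4 alone and 11.8 and 3.66 with GAL4-HP1. At 1200624 the values were 79.8 and 35.7 with GAL4 alone and 0 and 7.52 with GAL4-HP1. These 3 of the 4 did not overlap between the groups (75%, against 65.3% of all reporters). At 966930 they did, with 155 and 46.4 with GAL4 alone and 91.8 and 81.6 with GAL4-HP1. The median log2 fold change of the 4 was −1.76, within the quartiles of all reporters. The fifth, at 407950, had reads in 1 library of each group.

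Near the centromeres the median of the replicate means was lower than elsewhere, but the replicates and the arms were uneven. Pericentric reporters were those within 1 Mb of the centromere-proximal end of an arm or on a heterochromatic (Het) scaffold, which in dm3 holds heterochromatic sequence outside the arms. Of 52 such reporters 35 were compared. Their median expression in GAL4 was 28.9, against 38.5 for the 602 others on arms, and in GAL4-HP1 it was 5.96 against 15.4. The median log2 fold change was −2.19 for pericentric and −1.44 for the other reporters, a difference of −0.75. In the single replicates, where reporters at 0 in that replicate drop out, the difference was −0.32 and −0.37. Without GAL4 replicate 2 it was −0.23, without GAL4-HP1 replicate 1 it was −0.27, and without GAL4 replicate 1 it was −1.01. The 22 reporters within 1 Mb on the arms, without the Het scaffolds, had medians of −0.95 and −2.43 in the replicates, against −1.17 and −1.85 for the others, so in replicate 1 they were lowered less. The share lower without overlap was 24 of 35 (68.6%), near the 65.3% of all reporters.

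The arms differed within this zone. The 5 reporters compared within 1 Mb of the end of 2L had a median of −3.45 (−2.61 and −3.63 in the replicates) and a range of −6.31 to −0.70. The 4 on 3L had −2.63 (−2.71 and −1.79) and the 2 on 2R −4.21 (−2.10, from 1 reporter, and −3.82). The 3 on X had −2.39, but −0.95 and −1.57 in the replicates, less lowered than all reporters in both. On 3R the 8 reporters had a median of −0.56 (−0.23 and −2.02), so that replicate 1 showed almost no lowering there. The reporters nearest to the end varied too. For 3L-e, expression was 10.4 and 8.54 with GAL4 alone and 0.689 and 1.13 with GAL4-HP1, and for X-d it was 1.97 and 0.619 with GAL4 alone and 0.251 and 0.244 with GAL4-HP1, both without overlap. For 3R-a it was 23.0 and 17.8 with GAL4 alone but 43.5 and 3.89 with GAL4-HP1, on either side of the control.

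Along the arms the distance to the end made little difference beyond this zone. From 0 to 0.5 Mb the median was −2.19 (17 reporters), with −0.93 in replicate 1 and −2.72 in replicate 2. It was −0.82 from 0.5 to 1 Mb (5 reporters), −1.18 from 1 to 2 Mb (22), −1.48 from 2 to 5 Mb (80), −1.50 from 5 to 10 Mb (154), −1.22 from 10 to 15 Mb (127) and −1.47 farther out (219). The first bins hold few sites and their replicates disagree in order, so no gradient can be read from them. Within 1 Mb of the tip of an arm, where telomeric chromatin begins, the median of 24 reporters was −1.93 (−1.59 and −2.11), and 20 of them (83.3%) were lower without overlap, against 65.3% of all. The tip was looked at after the other distances, and this difference was not tested.

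The Het scaffolds themselves held 25 reporters, and 13 of them (52%) were compared, against 87.2% of the reporters on arms. Their reads were few, with a mean expression of at most 10 in GAL4 for 18 of the 25, and 13 of the 25 were at 0 in at least 1 GAL4-HP1 library. The median log2 fold change of the 13 was −2.35, with −2.34 in replicate 1 and −1.88 in replicate 2, so it lay below that of all reporters in replicate 1 (by −1.16) and at it in replicate 2 (−0.019). Of the 13, 11 (84.6%) were lower without overlap, against 65.3% of all reporters, a difference that was not tested. On 3LHet the reporter at 673443 had an expression of 69.4 and 76.8 with GAL4 alone and 24.6 and 4.86 with GAL4-HP1, and that at 723944 had 23.6 and 20.8 with GAL4 alone and 2.51 and 6.19 with GAL4-HP1. On XHet the only reporter had 7.86 and 14.2 with GAL4 alone and 1.57 and 2.22 with GAL4-HP1. Each of these was lower in both replicates. At 198757 of 3RHet all 4 libraries held between 1 and 6 cDNA reads, so every value of this reporter was near the floor of the counts.

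**Figure D4:**
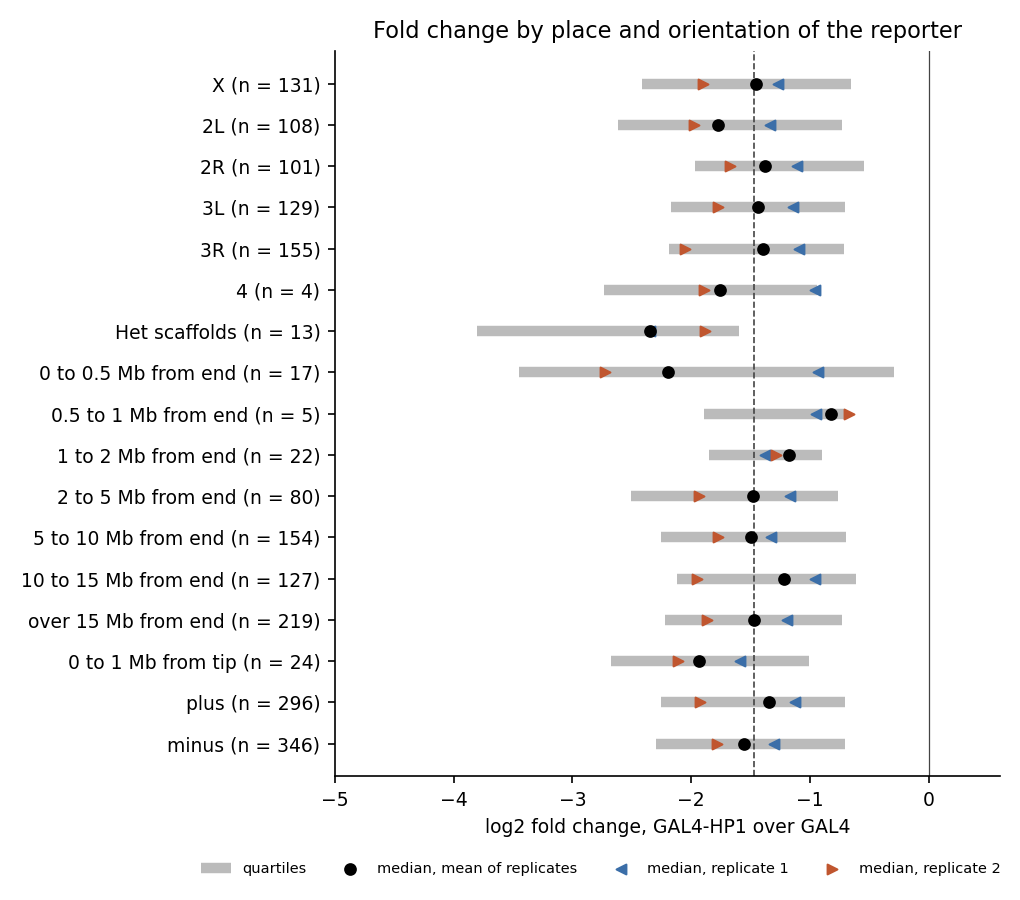
Log2 fold change of GAL4-HP1 over GAL4 (x axis) for reporters grouped by chromosome, scaffold, distance to the centromere-proximal end or the tip of the arm, and orientation, with the number compared. Black points are medians of the replicate means, triangles the medians of replicates 1 (blue) and 2 (orange), and grey bars the quartiles. The arms lie near the dashed line at −1.47, with the 13 Het reporters and the 17 reporters at 0 to 0.5 Mb to the left of it.

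The difference between the orientations of the reporter changed sign between the replicates. The median was −1.35 for 296 reporters in plus and −1.55 for 346 in minus orientation, a difference of 0.21 over the replicate means, with 0.18 in replicate 1 and −0.14 in replicate 2. Pointing toward the centromere gave −1.47 (305 reporters) and away from it −1.41 (319). In groups of barcode GC content, starting with the lowest, the median fold changes were −1.45, −1.22, −1.55 and −1.61. Close neighbours were compared as well. For 29 pairs of adjacent reporters under 10 kb apart, the fold changes differed by a median of 0.86 log2 units, against 1.15 for all pairs within the set of arms, and their values correlated with r = −0.13 across pairs, all of which share the same libraries. Their levels in GAL4 differed by a median of 1.29, against 2.02 for all pairs.

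The level of a reporter was related to its fold change in a way that depended on where the level was taken from. In deciles of the GAL4 level the medians ran from −1.82 to −1.21 with no steady order, and the highest quartile differed from the lowest by 0.20 (0.44 and 0.21 in the replicates). This difference was −0.29 without GAL4 replicate 1, 0.076 without GAL4 replicate 2 and 0.40 without GAL4-HP1 replicate 1. The GAL4 value enters both the level and the fold change there. Levels from the ACF1 libraries, which hold untethered ACF1, share no library with the comparison and so no value with the fold change. They are not levels of a control, since the study reports that untethered ACF1 weakly lowered reporters, and weak reporters more. Sorting by them may thus sort in part by the response to ACF1, which was not tested. The ACF1 levels correlated with the GAL4 levels (r = 0.858 across reporters on the log2 scale). In quartiles of the ACF1 level, from low to high, the median fold change was −2.03, −1.63, −1.38 and −1.15. Replicate 1 gave −1.69, −1.43, −1.09 and −0.79 and replicate 2 gave −2.14, −1.996, −1.89 and −1.55 in replicate 2, so without a pseudocount the order was the same in both replicates.

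The difference between the highest and lowest quartile of the ACF1 level was 0.87, with 0.90 and 0.59 in the replicates. Under column totals it was 0.88. It was smaller where reads near 0 counted less, at 0.53 with at least 10 cDNA counts in all 4 libraries and 0.32 with 1 added to the expression before the log2. With 1 added the order itself was lost, since the medians from low to high were −1.47, −1.51, −1.33 and −1.15, and replicate 2 had −1.55, −1.72, −1.83 and −1.53. Replicate 1 then had −1.38, −1.31, −1.05 and −0.79. Across the 642 reporters the ACF1 level and the fold change correlated with Pearson's r = 0.202 and Spearman's rho = 0.223. Unlike the medians, the share lower without overlap was nearly level over the quartiles on the deposited scaling, at 63.4%, 66.2%, 66.9% and 64.6%. Under column totals this share fell from low to high, at 49.7%, 42.5%, 41.25% and 32.3%.

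**Figure D5:**
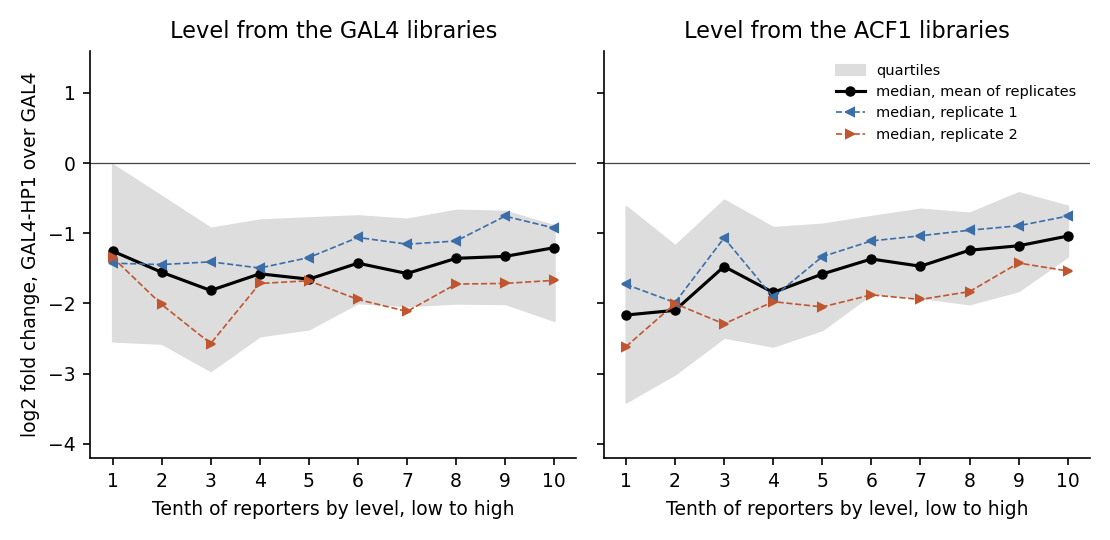
Log2 fold change of GAL4-HP1 over GAL4 (y axis) in deciles of the 642 reporters by level, from low to high (x axis), with the level taken from the GAL4 libraries (left) or from the ACF1 libraries (right). Black points are medians of the replicate means, coloured triangles those of each replicate, and the grey band the quartiles. On the left the medians stay between −1.82 and −1.21, and on the right they run from −2.17 in the lowest to −1.04 in the highest decile.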

How the data were processed

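The authors deposited 1 table of 749 reporters with barcode, chromosome, orientation and position (build dm3 in the submitters' processing notes), read counts for cDNA and gDNA, and a value of expression. The counts are deposited whole reads, not normalized and without molecular identifiers, so they measure reads and not molecules. The counting tool is not given in the sources used here. Expression, as deposited by the authors, is the ratio of cDNA to gDNA count times 1 factor per library (68.9 and 46.5 for GAL4, 69.3 and 30.2 for GAL4-HP1), in which a spike-in pool of 2.5% of the cells was used. The spike-in counts were not analysed here, so the factors could not be recomputed. Library totals were 3237365 to 4181903 cDNA and 1689978 to 2860908 gDNA reads, and the 10 highest reporters took 44.9% to 59.3% of cDNA reads.

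The methods of the study drop reporters at 0 in a condition and do not say whether this holds per replicate. Here reporters with a mean of 0 over both replicates in any of the 4 conditions were dropped, which kept 642. Asking for reads in all 8 cDNA libraries would keep 497. The number of reporters in the study's figures is close to 497 and well below 642. The set used here is therefore wider than that of the study, and it includes reporters at 0 in 1 GAL4-HP1 library. The fold change was log2 of the ratio of replicate means, with no pseudocount. Differences between groups of sites are descriptions with the value in each replicate. Counts were tested with edgeR 4.0.16 (quasi-likelihood, cDNA change minus gDNA change, 16 libraries in 8 groups, library sizes as column totals, Benjamini-Hochberg), with DESeq2 1.42.0 as an alternative. p-values measure the spread between these libraries, which may be technical.

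Reporters were named by a rule. Eligible were those kept, not on 2R or its Het scaffold, with at least 50 counts in each gDNA library. Named were those past the threshold, the 6 most lowered without overlap with 50 cDNA counts in each GAL4 library, up to 6 resisting with 50 in each GAL4-HP1 library, those on chromosome 4 and the Het scaffolds, the most centromere-proximal per arm and the 3 strongest in GAL4. The reporters, groups and rules were chosen with earlier results of these data known.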

Additional observations from a re-analysis of the deposited data

How the results depend on the processing

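The median log2 fold change was below 0 in all 14 alternatives. Alternatives here and below reuse the same libraries, and their number counts the averaging of log2 values again as a replicate block. It was −0.66 with column totals, −0.59 without division by gDNA and −0.41 with totals that leave out the reporter with the most reads, an alternative chosen after seeing the data, and it ranged from −2.09 to −1.21 with 1 replicate left out. The percent of reporters lower was 72.0 with column totals, 76.9 without division by gDNA and 85.2 to 93.2 with 1 replicate left out. The number lower without overlap was 266 with column totals. The number at or above the control was 37 with column totals, 34 without division by gDNA and 3 where all 8 cDNA libraries had to hold reads. Totals remove by construction any change that all reporters share, and the depth of weak reporters limits the precision of their ratios.

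The pericentric difference was below 0 in all 18 alternatives, which are not independent of each other. Column totals gave −0.69, averaging log2 values −0.27, adding 1 before the log2 −0.42, and a minimum of 10 cDNA counts −0.56. It was −0.51 with a mean above 0 in GAL4 and GAL4-HP1 only, −0.49 where all 8 cDNA libraries had to hold reads, −0.65 without division by gDNA and −0.67 on gDNA shares averaged over libraries. It was −0.28 within 2 Mb, −0.89 within 0.5 Mb, −0.53 without Het scaffolds and, chosen after seeing the data, −0.68 with distances from the most proximal reporter. With 1 replicate left out it ranged from −1.01 to −0.23.

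The difference of X from the autosomal arms was −0.086 on averaged log2 values, 0.11 with 1 added, 0.12 with a mean above 0 in GAL4 and GAL4-HP1 only, −0.15 where all 8 cDNA libraries had to hold reads, 0.20 without division by gDNA, 0.17 on averaged gDNA shares, and −0.060 to 0.13 with 1 replicate left out. The orientation difference ranged from −0.039 to 0.22 with 1 replicate left out. The difference between quartiles of the GAL4 level was −0.17 with 1 added, 0.44 without division by gDNA, 0.52 on averaged gDNA shares, and −0.29 to 0.40 with 1 replicate left out. Taking the level and the fold change from different GAL4 replicates gave 0.54 and 0.89. With the level from ACF1 it was 0.87, and, chosen after seeing the data, 0.53 with at least 10 cDNA counts, 0.88 with column totals and 0.81 on averaged log2 fold changes. The causes were not tested.

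The number of reporters called was 17 with DESeq2 on column totals (15 lower), 13 with DESeq2 on median-of-ratios factors (2 lower, with no adjusted p for 411), 5 on cDNA libraries alone (4 lower) and, by edgeR, 0 with each 1 of the 4 replicates left out (38 to 72 at an unadjusted p under 0.05). With TMM factors 2 were called, 0 of them lower. With library sizes from the deposited scaling 3 were called, 3 of them lower.

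The labels do not say whether same-numbered replicates of the 2 groups were prepared together. Deviations of same-numbered libraries correlated with r = 0.026 across reporters. This value cannot settle the question, since a shift that all reporters share would not appear in it. Averaging the log2 fold changes of same-numbered replicates gave a median of −1.49 and 94.7 percent lower. The pericentric difference was then −0.27, the X difference −0.086, the orientation difference 0.19 and the difference between quartiles 0.29. Such averages equal those of log2 values without pairing, so they cannot settle the question either. With a replicate block in the edgeR fit the number called was 3.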
